A study of Mus musculus with 24 samples.

Results

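The 10 genes described here encode enzymes that break down threonine, make serine and move 1-carbon units: Tdh, Gcat, Gldc, Shmt1, Shmt2, Mthfd1, Mthfd2, Phgdh, Psat1 and Psph. They were taken by name from the 53465 genes of the deposited table, by a rule that uses no measured value but was written with earlier results of these data known. All 10 were found, and all 10 were among the 15159 genes tested. RNA-seq of poly(A)+ RNA was done on mouse embryonic stem cells that were Atf3 knockout (KO) or wild type (WT), before differentiation (day 0) and after 3, 6 and 9 days of it. Each of the 8 groups has 3 libraries. Atf3 encodes a stress-inducible transcription factor, and by its title the series asks how its loss bears on mesoderm and endothelium. Both genotypes were grown in serum-containing medium with leukaemia inhibitory factor (LIF), the GSK3 inhibitor CHIR99021 and the MEK inhibitor PD0325901. The sources used here do not give the medium of differentiation, the edit made in Atf3 or the number of clones. They do not say whether a group's libraries are separate cultures, so p-values measure the spread between libraries only, and that spread may be technical.

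Threonine dehydrogenase (Tdh) and glycine C-acetyltransferase (Gcat) act in turn in mitochondria to turn threonine into glycine and acetyl-CoA. Mouse embryonic stem cells are known for their dependence on this route. The glycine cleavage system and the serine hydroxymethyltransferases then load 1-carbon units from glycine and serine onto folate. The Mthfd enzymes interconvert the folate forms used for purine and thymidylate synthesis. Serine itself is made from a glycolytic intermediate by Phgdh, Psat1 and Psph acting in that order.

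Reads recovered from the deposited FPKM values (fragments per kilobase of gene, scaled by library) numbered 7855623 to 25274429 per library. No member value rested on fewer than 131 reads. Atf3 averaged 0.172, 0.436, 1.70 and 0.534 FPKM in KO cells and 1.86, 10.4, 15.8 and 15.0 FPKM in WT cells at days 0, 3, 6 and 9, with every KO library under every WT library of its day. The 13 naive stem-cell markers summed to 1919 to 2117 FPKM in KO and 1984 to 2099 FPKM in WT libraries at day 0, and to 48.2 to 135 FPKM in KO and 63.9 to 97.5 FPKM in WT libraries at day 9. Cardiac and smooth muscle markers (10 genes) summed to 1292 to 2116 FPKM in KO and 771 to 1435 FPKM in WT libraries at day 9. Feeder or fibroblast markers (7 genes) summed to 2.79 to 3.85 FPKM in KO and 5.31 to 6.41 FPKM in WT libraries at day 0. Gm23935, Gm42418 and CT010467.1, whose sequence is of the rRNA type, took 4.42% to 45.6% of the reads, the most in WT day 6 replicate 3. Their share ran from 27.0% to 28.7% in KO and from 25.7% to 32.8% in WT libraries at day 0, and from 4.92% to 11.5% in KO and from 4.42% to 14.9% in WT libraries at day 9, and its part in the changes between days was not tested.

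The order of the set changed over the time course. At day 0 Tdh was the most abundant of the 10 in every library, averaging 293 FPKM in KO and 307 FPKM in WT cells, and the other 9 lay between 19.5 and 85.2 FPKM in KO and between 19.4 and 92.0 FPKM in WT cells. At day 9 Phgdh was the most abundant in every library, averaging 74.1 FPKM in KO and 93.2 FPKM in WT cells. Tdh had the lowest mean at day 9, at 7.17 ± 4.15 FPKM in KO and 12.0 ± 2.66 FPKM in WT cells (SD, n = 3). That place lies within the spread. Psph, Gldc and Gcat averaged 10.03, 11.5 and 11.4 FPKM in KO and 12.4, 13.3 and 13.4 FPKM in WT cells. At least 1 of them lay under Tdh in KO day 9 replicate 2 and in WT day 9 replicates 1 and 3. FPKM is per length of gene, so levels of different genes can be set side by side. In the day 0 order neighbours under Tdh lay close: Shmt2, Psat1, Shmt1, Mthfd1, Gldc and Phgdh in KO cells had means from 85.2 down to 63.2 FPKM, with SDs of 2.10 to 14.2. In bulk samples fewer cells of a type and less RNA per cell cannot be told apart.

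**Figure D1:**
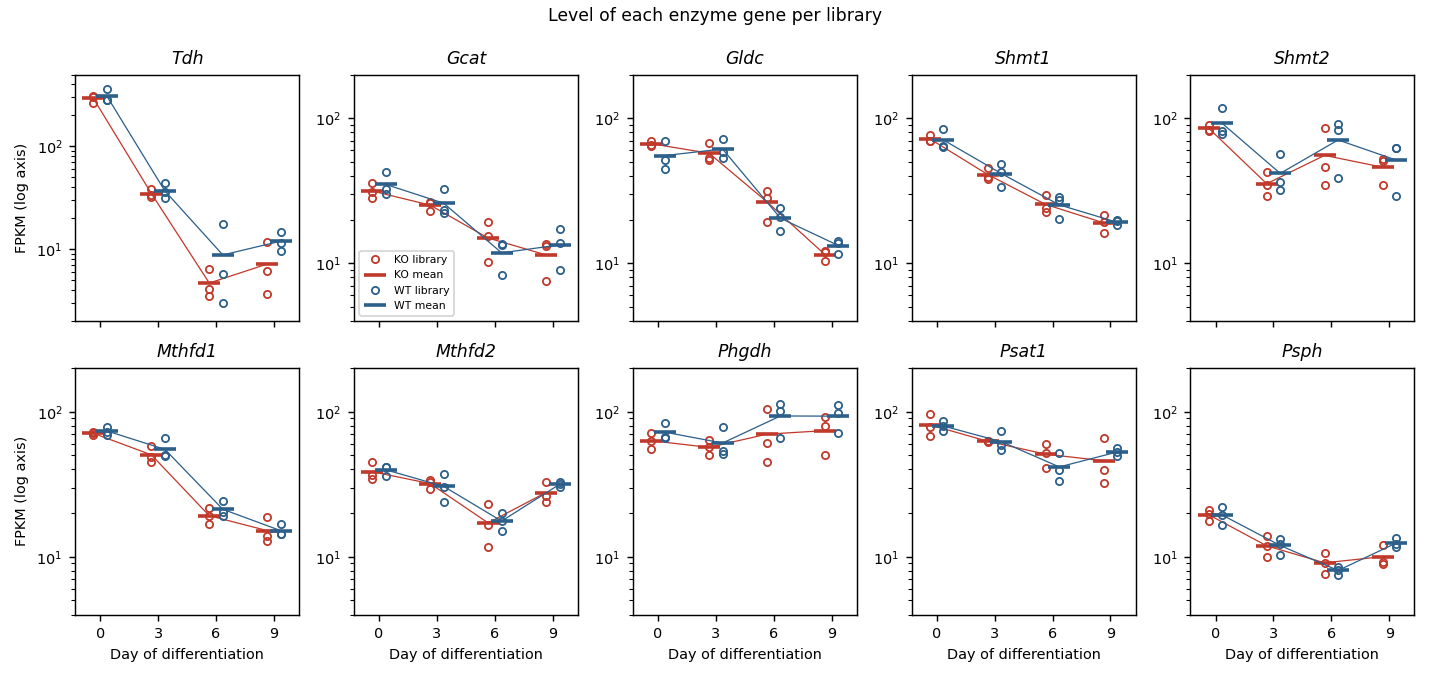
FPKM of each of the 10 genes in each library (open circles, log axis) by day of differentiation, KO in red to the left of WT in blue, with bars and lines at the means of 3 libraries. Tdh drops from the top of the set to a mean under those of the other 9 at day 9, Phgdh overlaps its day 0 range at each later day, Shmt2 dips at day 3 and Mthfd2 at day 6, and KO and WT circles overlap in every panel and day.

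Each later day was compared with day 0 in each genotype with limma on log2(FPKM + 1), adjusted by Benjamini-Hochberg over all genes tested, with a threshold of 0.05. At day 3, 5 of the 10 genes were lower than at day 0 in KO cells and 4 in WT cells, and none was higher. Of all genes tested 28.1% passed in either direction in KO cells (16.2% lower) and 25.9% in WT cells (14.5% lower). At day 6, 8 were lower in KO and 8 in WT cells, against 43.7% of all genes passing (22.3% lower) in KO and 47.8% (25.2% lower) in WT cells. At day 9, 8 were again lower in each genotype, against 45.1% of all genes passing (22.7% lower) in KO and 46% (23.8% lower) in WT cells. The same 8 genes were lower in both genotypes at day 6, and likewise 8 at day 9. The median log2 fold change of the 10 genes at day 9 was -1.16 in KO and -1.12 in WT cells, and that of all genes tested was -0.02 in KO and -0.01 in WT cells. In this scaling Phgdh passed at no day, Shmt2 missed at day 6 and Mthfd2 missed at day 9.

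**Figure D2:**
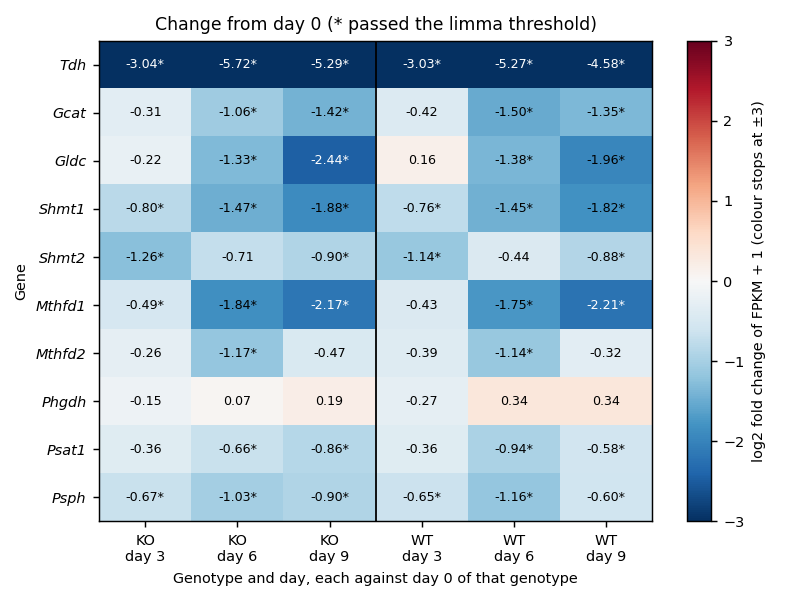
Log2 fold change of FPKM + 1 at days 3, 6 and 9 against day 0 of the same genotype, KO columns left of WT columns, with an asterisk where limma's adjusted p was under the threshold. Tdh has the largest drop in every column, down to -5.72 in KO cells at day 6, and Phgdh carries no asterisk.

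How far these calls hold depends on scaling between libraries. Rescaling to TPM (equal sums over all genes, rRNA-type genes included) moved the median of all genes by 0.70 in KO and 0.75 in WT cells at day 9 against day 0. Equal sums with the rRNA-type genes left out moved it by 0.0989 in KO and 0.0897 in WT cells. Both rescalings set equal sums per library, and they differ in whether the rRNA-type genes enter those sums. Beyond this contrast, the part of the rRNA-type genes in the shift was not tested. Under TPM the share of calls that were lower fell to 14.1% in KO and 12.4% in WT cells, against 50.4% in KO and 51.8% in WT cells as deposited. Of 17020 genes tested under TPM, 1784 passed at day 3, 4851 at day 6 and 7224 at day 9 in KO cells. In WT cells 1552, 3629 and 7679 passed at those days. Of the members, 2 passed at day 3 and 3 at day 6 in KO cells, and 2 at day 3 and 6 at day 6 in WT cells. In each genotype 5 passed at day 9, with Tdh, Gldc, Shmt1 and Mthfd1 lower. Phgdh was the higher one, at 1.09 in KO (adjusted p = 0.0109) and 1.34 in WT cells (adjusted p = 0.00226). At day 6 the share of calls that were lower was 26.0% in KO cells under TPM, against 51.1% as deposited. At day 6 against day 3 it was 25.4% under TPM and 45.7% as deposited in KO cells. At day 9 against day 6 it was 8.19% in KO and 2.14% in WT cells under TPM, against 28.8% in KO and 38.6% in WT cells as deposited.

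Of the threonine route, Tdh (ENSMUSG00000021953, chromosome 14, 63492347 to 63509092, minus strand, mm10) changed most. At day 0 it stood at 310, 266 and 301 FPKM in the KO libraries and at 359, 282 and 282 FPKM in the WT libraries. At day 3 it stood at 32.1, 38.3 and 34.0 FPKM in KO and at 31.2, 43.8 and 35.7 FPKM in WT libraries. At day 6 the KO libraries had 6.42, 3.48 and 4.14 FPKM and the WT libraries 5.68, 2.97 and 17.7 FPKM. Every day 3 library thus lay far under every day 0 library, and every day 6 library under every day 3 library, in both genotypes. At day 9 it stood at 3.66, 11.7 and 6.09 FPKM in KO and at 9.57, 11.5 and 14.8 FPKM in WT libraries. The day 6 mean was 1.60% of the day 0 mean in KO cells and 2.86% in WT cells. Tdh fell by 3.04 ± 0.39 (SE) on the log2 scale at day 3 in KO cells (adjusted p = 5.80e-06), and in WT cells its log2 fold change was -3.03 ± 0.39 (adjusted p = 6.12e-06). At day 6 the log2 fold change was -5.72 in KO (adjusted p = 3.72e-10) and -5.27 in WT cells (adjusted p = 1.29e-09). At day 9 it was -5.29 in KO (adjusted p = 9.68e-10) and -4.58 in WT cells (adjusted p = 8.26e-09). Day 9 differed from day 6 by 0.43 in KO (adjusted p = 0.605) and 0.69 in WT cells (adjusted p = 0.242). Without WT day 6 replicate 3 the WT value was 1.31 (adjusted p = 0.0170).

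Gcat (ENSMUSG00000006378, chromosome 15, 79030874 to 79038353, plus strand), which takes the product of Tdh, moved much less. It averaged 31.5 ± 3.78, 25.2 ± 1.98, 14.9 ± 4.55 and 11.4 ± 3.37 FPKM at days 0, 3, 6 and 9 in KO cells (SD, n = 3), and 34.97 ± 6.59, 25.9 ± 5.61, 11.8 ± 2.99 and 13.4 ± 4.18 FPKM in WT cells. It passed at day 6 (log2 fold change -1.06 in KO, adjusted p = 0.00260, and -1.50 in WT cells, adjusted p = 9.68e-05) and at day 9 (-1.42 in KO, adjusted p = 1.58e-04, and -1.35 in WT cells, adjusted p = 2.67e-04), but not at day 3. Over the 24 libraries the genes whose log2 levels were most like those of Tdh were Rbmxl2 (Pearson's r = 0.987), Adap1 (0.984), Gdf3 (0.983), Nr0b1 (0.982) and Fgf4 (0.981), out of 7752 genes searched. Nr0b1 and Fgf4 are 2 of the naive stem-cell markers above, and these r values rest on groups that share their day.

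Gldc (ENSMUSG00000024827, chromosome 19, 30098447 to 30175429, minus strand) encodes the glycine-decarboxylating subunit of the glycine cleavage system, and its fall came later. At day 0 it stood at 65.6, 64.6 and 70.0 FPKM in KO and at 69.8, 51.4 and 44.6 FPKM in WT libraries, and at day 3 at 51.7, 67.2 and 53.2 FPKM in KO and at 58.4, 72.4 and 53.3 FPKM in WT libraries. The day 3 and day 0 ranges overlapped in both genotypes (log2 fold change -0.22 in KO, adjusted p = 0.439, and 0.16 in WT cells, adjusted p = 0.609). At day 6 it stood at 28.4, 31.7 and 19.4 FPKM in KO and at 20.8, 16.6 and 23.9 FPKM in WT libraries, all under every earlier library. At day 9 it stood at 10.3, 12.1 and 12.1 FPKM in KO and at 13.8, 14.4 and 11.6 FPKM in WT libraries, with all KO values under all KO values of day 6. The log2 fold change from day 0 was -2.44 ± 0.20 (SE) in KO (adjusted p = 2.91e-09) and -1.96 ± 0.20 in WT cells (adjusted p = 7.25e-08) at day 9. From day 6 to day 9 it fell by 1.11 in KO cells (adjusted p = 7.12e-04), a call lost under TPM (adjusted p = 0.321) and with the compared groups alone (adjusted p = 0.0889). The WT difference was -0.58 (adjusted p = 0.0559), which turned to 0.47 under TPM and passed without WT day 6 replicate 2 (adjusted p = 0.0201).

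Other genes of glycine cleavage and of threonine or serine breakdown were called about as often as all genes. Of 13 listed, 9 were tested, and at day 9, when 45.1% of all genes passed in KO and 46% in WT cells, 1 was higher and 3 were lower in KO cells, and 1 higher and 3 lower in WT cells (median log2 fold change -0.35 in KO and -0.21 in WT cells). Amt, the aminomethyltransferase of glycine cleavage, averaged 13.5 FPKM at day 9 and 41.7 FPKM at day 0 in KO cells (log2 fold change -1.58, adjusted p = 1.64e-05), and 9.72 FPKM at day 9 and 43.5 FPKM at day 0 in WT cells (-2.05, adjusted p = 5.94e-07). Gcsh, its lipoyl carrier protein, had a log2 fold change of -1.06 in KO (adjusted p = 1.36e-04) and -0.83 in WT cells (adjusted p = 0.00154). Tha1, threonine aldolase, which splits threonine to glycine by another route, was higher at 0.63 in KO (adjusted p = 0.0116) and 0.58 in WT cells (adjusted p = 0.0181), at levels near 1.17 FPKM in KO and 1.05 FPKM in WT cells.

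The 2 serine hydroxymethyltransferases move a carbon from serine to folate in different compartments. Shmt1 (ENSMUSG00000020534, chromosome 11, 60788104 to 60811718, minus strand), the cytosolic form, averaged 72.0 ± 4.001, 40.9 ± 3.62, 25.4 ± 3.72 and 19.0 ± 2.73 FPKM at days 0, 3, 6 and 9 in KO cells (SD, n = 3), and 70.7 ± 12.0, 41.5 ± 7.53, 25.3 ± 4.58 and 19.2 ± 0.75 FPKM in WT cells. It was lower at each later day than at day 0, with a log2 fold change of -1.88 ± 0.17 (SE) in KO (adjusted p = 2.03e-08) and -1.82 ± 0.17 in WT cells (adjusted p = 3.47e-08) at day 9. Its day 9 against day 6 differences of -0.40 in KO (adjusted p = 0.196) and -0.37 in WT cells (adjusted p = 0.159) did not pass.

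Shmt2 (ENSMUSG00000025403, chromosome 10, 127517123 to 127522444, minus strand), the mitochondrial form, was lowest on average at day 3. At day 0 it stood at 81.7, 90.4 and 83.5 FPKM in KO and at 117, 81.0 and 77.8 FPKM in WT libraries, and at day 3 at 29.2, 42.3 and 34.5 FPKM in KO and at 36.1, 56.7 and 32.1 FPKM in WT libraries. At day 6 it stood at 85.3, 46.3 and 34.7 FPKM in KO and at 82.6, 38.6 and 91.2 FPKM in WT libraries, and at day 9 at 50.5, 52.7 and 34.6 FPKM in KO and at 29.3, 62.6 and 62.6 FPKM in WT libraries. Libraries of day 6 thus reached the day 0 range in both genotypes while others of the same group stayed near the day 3 range. It fell by 1.26 ± 0.35 (SE, log2) at day 3 in KO (adjusted p = 0.0106) and by 1.14 ± 0.35 in WT cells (adjusted p = 0.0204). The WT call was lost without WT day 0 replicate 1, WT day 3 replicate 1 or WT day 3 replicate 3 (adjusted p = 0.101, 0.0696 and 0.0971). At day 6 the log2 fold change was -0.71 in KO (adjusted p = 0.111) and -0.44 in WT cells (adjusted p = 0.320). Without KO day 6 replicate 1 the KO value was -1.07 (adjusted p = 0.0229). At day 9 it was -0.90 in KO (adjusted p = 0.0440) and -0.88 in WT cells (adjusted p = 0.0476). The KO call was lost without any 1 of the 6 KO libraries compared (adjusted p = 0.0524 to 0.170), and the WT call without WT day 0 replicate 1, 2 or 3 or WT day 9 replicate 1 (adjusted p = 0.176, 0.0655, 0.0566 and 0.257). The rRNA-type share as a covariate was an alternative chosen after seeing the data. With it the day 9 value was 0.15 in KO and 0.10 in WT cells. Shares at day 0 and day 9 did not overlap in either genotype, so share and day cannot be told apart there. Under TPM the WT value at day 9 was 0.11.

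Of the Mthfd pair, Mthfd1 was lower at day 9 than at day 0 and Mthfd2 did not pass there. Mthfd1 (ENSMUSG00000021048, chromosome 12, 76255298 to 76319803, plus strand), the cytosolic enzyme with synthetase, cyclohydrolase and dehydrogenase activities, averaged 71.0 ± 2.10, 50.5 ± 6.78, 19.2 ± 2.31 and 15.2 ± 3.10 FPKM at days 0, 3, 6 and 9 in KO cells (SD, n = 3), and 73.7 ± 4.67, 55.0 ± 9.22, 21.3 ± 2.78 and 15.1 ± 1.38 FPKM in WT cells. At day 9 its log2 fold change was -2.17 ± 0.16 (SE) in KO (adjusted p = 9.99e-10) and -2.21 ± 0.16 in WT cells (adjusted p = 9.13e-10). At day 3 it was -0.49 in KO (adjusted p = 0.0279) and -0.43 in WT cells (adjusted p = 0.0603). The KO call at day 3 was lost without KO day 0 replicate 1 or 2, the unnumbered KO day 0 library, or KO day 3 replicate 1 or 3 (adjusted p = 0.0821, 0.0584, 0.0679, 0.0770 and 0.129). The WT value passed without WT day 3 replicate 2 (adjusted p = 0.0224).

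Mthfd2 (ENSMUSG00000005667, chromosome 6, 83305691 to 83325908, minus strand), the mitochondrial dehydrogenase and cyclohydrolase, fell and then rose. At day 0 it stood at 36.9, 44.8 and 34.1 FPKM in KO and at 36.1, 41.7 and 41.6 FPKM in WT libraries, and at day 3 at 29.4, 33.7 and 32.7 FPKM in KO and at 24.04, 37.2 and 30.5 FPKM in WT libraries. At day 6 it stood at 16.6, 11.6 and 23.2 FPKM in KO and at 17.7, 15.0 and 20.2 FPKM in WT libraries, and at day 9 at 32.9, 26.4 and 23.96 FPKM in KO and at 30.1, 31.9 and 32.8 FPKM in WT libraries. Every day 9 library lay above every day 6 library and under every day 0 library of its genotype. The log2 fold change at day 6 was -1.17 in KO (adjusted p = 9.36e-05) and -1.14 in WT cells (adjusted p = 1.23e-04). From day 6 to day 9 it rose by 0.70 ± 0.20 (SE) in KO (adjusted p = 0.0348) and by 0.82 ± 0.20 in WT cells (adjusted p = 0.0121). Day 9 against day 0 was -0.47 in KO (adjusted p = 0.0704) and -0.32 in WT cells (adjusted p = 0.212), turned under TPM to 0.42 in KO and 0.66 in WT cells. With the compared groups alone the rise did not pass in KO (adjusted p = 0.345) or WT cells (adjusted p = 0.101), and under TPM it did not pass in KO cells (adjusted p = 0.0973). The KO rise was also lost without KO day 6 replicate 1 or 2 or KO day 9 replicate 1 or 2 (adjusted p = 0.0852, 0.234, 0.178 and 0.0599). Day 9 against day 0 in KO cells passed without KO day 9 replicate 1 (adjusted p = 0.0416). Most like Mthfd2 over the 24 libraries were Tle4 (r = 0.882), Uchl1os (0.859), Ctps (0.849), Dph2 (0.847) and Mcam (0.846).

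Steps between neighbouring days gave counts that depend on scaling, and under TPM they were 1 and 0 in KO cells and 4 and 6 in WT cells for the step to day 6 and that to day 9. Of 17020 genes tested under TPM, 3261 and 1294 passed at these steps in KO cells, and 2100 and 5092 in WT cells. As deposited, at day 6 against day 3, 6 members were lower in KO cells (32.7% of all genes passed, 14.9% lower) and 8 in WT cells (38.6% passed, 19.1% lower), with none higher. The KO call of Gcat there (-0.76, adjusted p = 0.0331) was lost without any 1 of KO day 3 replicates 1, 2 and 3 and KO day 6 replicates 2 and 3 (adjusted p = 0.0522 to 0.131). In WT cells the call of Psat1 (-0.58, adjusted p = 0.0443) was lost without WT day 3 replicate 2 or 3 or WT day 6 replicate 2 or 3 (adjusted p = 0.0740 to 0.180). That of Psph (-0.51, adjusted p = 0.0174) was lost without WT day 3 replicate 1 or 2 or WT day 6 replicate 3 (adjusted p = 0.0522 to 0.0680). Shmt2, at 0.70 in WT cells (adjusted p = 0.122), passed as higher without WT day 6 replicate 2 (adjusted p = 0.0191). At day 9 against day 6, Mthfd2 was higher and Gldc lower in KO cells (8.51% of all genes passed, 6.06% higher and 2.45% lower). Mthfd2 and Psph were higher in WT cells (13.3% passed, 8.15% higher and 5.13% lower). At that step 5 members passed in WT cells without WT day 6 replicate 2, and 1 without WT day 9 replicate 1 or 2.

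Ratios of paired enzymes within a library do not depend on how libraries were scaled. The ratio of Shmt2 to Shmt1 averaged 1.19, 0.860, 2.11 and 2.41 at days 0, 3, 6 and 9 in KO cells, and 1.29, 1.00, 2.72 and 2.66 in WT cells. The ratio of Mthfd2 to Mthfd1 averaged 0.545, 0.639, 0.877 and 1.84 in KO cells, and 0.543, 0.555, 0.828 and 2.10 in WT cells. At day 9 the lowest ratio of either pair in any library was the 1.60 of Shmt2 to Shmt1 in WT day 9 replicate 1. The ratio of Phgdh to Psat1, the first and second enzymes of serine synthesis, averaged 0.781, 0.909, 1.33 and 1.66 in KO cells, and 0.918, 0.971, 2.34 and 1.79 in WT cells. At days 6 and 9 all 3 ratios lay above every day 0 library in both genotypes. At day 3 the ratio of Shmt2 to Shmt1 lay under every day 0 library, with a change of 0.725-fold in KO and 0.762-fold in WT cells. That of Phgdh to Psat1 lay above every day 0 library at day 3 in KO cells (1.16-fold). The exact two-sided permutation test gave p = 0.1 each time, the smallest that 3 against 3 libraries allow. The other day 3 ranges overlapped those of day 0. How often ratios of other gene pairs separate in this way was not tested. At day 9 the change of the ratio was 2.02-fold for Shmt2 to Shmt1, 3.40-fold for Mthfd2 to Mthfd1 and 2.10-fold for Phgdh to Psat1 in KO cells, and 1.97-fold, 3.87-fold and 1.92-fold in WT cells.

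**Figure D3:**
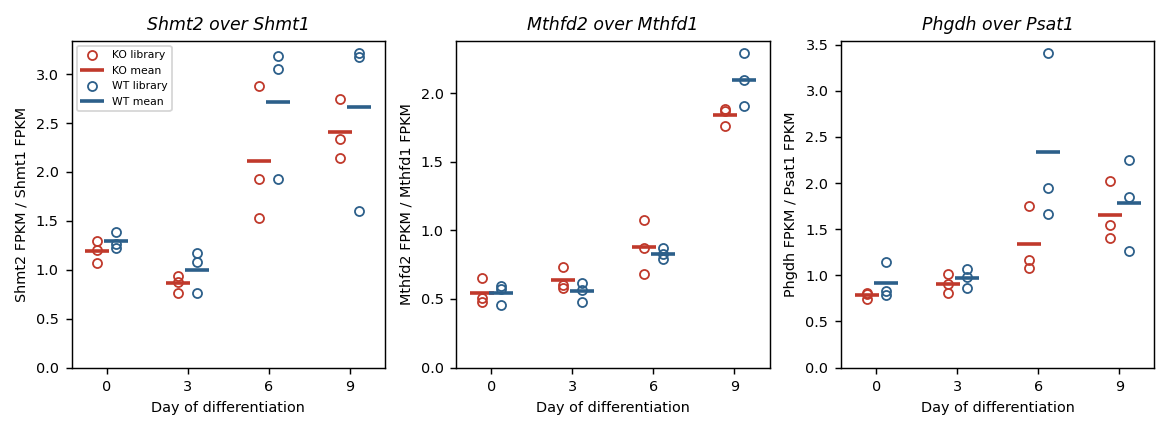
Ratio of FPKM of the mitochondrial to the cytosolic enzyme for the Shmt and Mthfd pairs, and of Phgdh to Psat1, in each library (circles) by day, KO in red left of WT in blue, with bars at means of 3 libraries. Day 9 ratios lie above day 0 ratios in all panels, with mean Mthfd2 over Mthfd1 at 1.84 in KO and 2.10 in WT cells.

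Of the serine synthesis genes, Psat1 and Psph were lower at days 6 and 9 and Phgdh did not pass in the deposited scaling. Phgdh (ENSMUSG00000053398, chromosome 3, 98313170 to 98339990, minus strand), the first enzyme of the branch, stood at 55.4, 71.4 and 62.7 FPKM in KO and at 84.0, 67.2 and 66.0 FPKM in WT libraries at day 0, and at 56.8, 63.5 and 50.2 FPKM in KO and 53.3, 78.4 and 50.8 FPKM in WT libraries at day 3. At day 6 it stood at 105, 60.6 and 44.7 FPKM in KO and at 101, 65.8 and 113 FPKM in WT libraries, and at day 9 at 92.4, 79.9 and 49.97 FPKM in KO and at 70.8, 97.9 and 111 FPKM in WT libraries. The ranges of every later day overlapped that of day 0. The log2 fold change at day 9 was 0.19 ± 0.29 (SE) in KO (adjusted p = 0.630) and 0.34 ± 0.29 in WT cells (adjusted p = 0.349). With the rRNA-type share of reads as a covariate, added after seeing the data, it was 0.95 in KO (adjusted p = 0.00642) and 1.05 in WT cells (adjusted p = 0.00243). Shares at day 0 and day 9 did not overlap in either genotype. These values thus extend a slope seen within groups over that gap, and share and day cannot be told apart. Most like Phgdh over the 24 libraries were Otub1 (r = 0.897), Fam213b (0.867), Cdk4 (0.867), Zfp771 (0.859) and Crabp1 (0.852).

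Psat1 (ENSMUSG00000024640, chromosome 19, 15904678 to 15947337, minus strand), the aminotransferase of serine synthesis, averaged 81.3 ± 14.2, 62.5 ± 0.65, 51.0 ± 9.38 and 45.9 ± 17.7 FPKM at days 0, 3, 6 and 9 in KO cells (SD, n = 3), and 79.7 ± 6.29, 62.2 ± 9.74, 41.6 ± 9.68 and 52.8 ± 3.47 FPKM in WT cells. It passed at day 6 (log2 fold change -0.66 in KO, adjusted p = 0.0195, and -0.94 in WT cells, adjusted p = 0.00162) and at day 9 (-0.86 in KO, adjusted p = 0.00317, and -0.58 in WT cells, adjusted p = 0.0362), with the day 9 direction lost under TPM (0.028 in KO and 0.41 in WT cells). The day 6 KO call was lost without KO day 0 replicate 2 or KO day 6 replicate 3 (adjusted p = 0.0979 and 0.0789). The day 9 WT call was lost without WT day 0 replicate 2 or 3 or WT day 9 replicate 2 or 3 (adjusted p = 0.106, 0.0752, 0.0736 and 0.0963). Psph (ENSMUSG00000029446, chromosome 5, 129765558 to 129787449, minus strand), the phosphatase of the last step, averaged 19.5 ± 1.68, 11.9 ± 1.96, 9.09 ± 1.53 and 10.03 ± 1.74 FPKM in KO cells (SD, n = 3), and 19.4 ± 2.72, 12.0 ± 1.59, 8.05 ± 0.52 and 12.4 ± 0.93 FPKM in WT cells. It was lower than at day 0 at each later day, other than in WT cells at day 9 under TPM (0.36). Its log2 fold change was -1.03 in KO (adjusted p = 2.93e-05) and -1.16 in WT cells (adjusted p = 6.77e-06) at day 6. From day 6 to day 9 it rose by 0.57 in WT cells (adjusted p = 0.0257), a call lost without WT day 6 replicate 3 or WT day 9 replicate 1 or 2 (adjusted p = 0.105, 0.0939 and 0.0543), and differed by 0.13 in KO cells (adjusted p = 0.730).

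Promoter windows (RefSeq, GRCm38.p6, from 250 bases before the start to 50 from it on) were held for 9 of the 10 genes, with 2 for Psat1 and none for Tdh. Shmt1 and Mthfd1 are shown because their courses were the most alike of any member pair (r = 0.959 over the 24 libraries), Gcat as the Tdh partner, and Phgdh as the gene that passed at no day in the deposited scaling. Capitals mark, on either strand, the E-box CACGTG, the GC box GGGCGG and the CCAAT box CCAAT, which can overlap. The GC box and the CCAAT box were chosen after seeing the data. The windows are Shmt1 chr11:60811216-60811515 (minus strand), Mthfd1 chr12:76254982-76255281 (plus strand), Gcat chr15:79030624-79030923 (plus strand) and Phgdh chr3:98339920-98340219 (minus strand).
Shmt1: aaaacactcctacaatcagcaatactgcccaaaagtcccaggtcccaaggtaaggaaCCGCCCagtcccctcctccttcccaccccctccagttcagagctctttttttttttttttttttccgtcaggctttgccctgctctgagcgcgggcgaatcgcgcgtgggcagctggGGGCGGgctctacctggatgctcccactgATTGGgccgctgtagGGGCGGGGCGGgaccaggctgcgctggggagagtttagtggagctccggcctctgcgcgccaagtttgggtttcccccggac
Mthfd1: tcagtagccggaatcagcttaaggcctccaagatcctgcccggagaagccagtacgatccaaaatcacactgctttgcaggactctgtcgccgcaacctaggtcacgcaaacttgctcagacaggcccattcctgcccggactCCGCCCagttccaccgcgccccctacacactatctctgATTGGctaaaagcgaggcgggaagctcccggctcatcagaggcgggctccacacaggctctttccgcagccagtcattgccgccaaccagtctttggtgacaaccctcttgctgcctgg
Gcat: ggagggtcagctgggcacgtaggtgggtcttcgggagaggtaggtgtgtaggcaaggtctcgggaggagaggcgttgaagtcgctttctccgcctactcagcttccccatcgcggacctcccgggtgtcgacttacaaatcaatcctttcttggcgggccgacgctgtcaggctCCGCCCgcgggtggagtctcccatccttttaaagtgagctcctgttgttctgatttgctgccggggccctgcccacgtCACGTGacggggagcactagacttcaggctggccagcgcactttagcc
Phgdh: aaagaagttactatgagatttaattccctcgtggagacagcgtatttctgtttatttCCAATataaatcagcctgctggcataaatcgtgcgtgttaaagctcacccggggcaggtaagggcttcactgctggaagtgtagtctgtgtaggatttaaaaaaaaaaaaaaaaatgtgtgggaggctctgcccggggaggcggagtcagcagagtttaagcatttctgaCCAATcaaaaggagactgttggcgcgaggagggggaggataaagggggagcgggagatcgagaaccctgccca

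Shmt1 holds 4 GC boxes and 1 CCAAT box, Mthfd1 1 of each, Gcat 1 GC box and the E-box starting 2 bases after the start, and Phgdh 2 CCAAT boxes and no GC box. Over the 10 windows a GC box was found in 6, against 35.7% of 32851 promoter windows in all, and a CCAAT box in 7, against 37.4%. Psat1 holds the GC box in 1 of its windows and the CCAAT box in the other. G and C made up 55.7% to 66.7% of the windows other than Phgdh (47.7%) and Shmt2 (42.7%). The median of all promoter windows was 52.7%, and the part of base content in these matches was not tested. The E-box was found in 1 window, against 7.15% of all. The amino acid response element TGATGNAA (3.97% of all), the cAMP response element TGACGTCA (1.79%) and the AP-1 element TGANTCA (7.81%) were found in none of the 10 windows. Such matches describe letters in a window and no binding was measured.

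Genes of purine synthesis and of the methionine cycle, which use 1-carbon units, were mostly lower at day 9 in the deposited scaling, in lists chosen with earlier results known. Of all genes tested 22.7% were lower in KO and 23.8% in WT cells there. Of 15 genes of purine and thymidylate synthesis, 12 were lower and 1 higher at day 9 in KO cells, and 10 were lower and 1 higher in WT cells, with a median log2 fold change of -0.83 in KO and -0.96 in WT cells. Gart, which carries several activities of purine ring synthesis, averaged 34.6 FPKM at day 9 and 139 FPKM at day 0 in KO cells (log2 fold change -1.98, adjusted p = 1.42e-06), and 31.0 FPKM at day 9 and 141 FPKM at day 0 in WT cells (-2.14, adjusted p = 5.53e-07). Prps1, which makes the ribose phosphate donor of that route, had -1.83 in KO (adjusted p = 3.21e-07) and -2.08 in WT cells (adjusted p = 5.92e-08). Of the methionine cycle and transsulfuration, 13 of 16 genes were tested, and 9 were lower and none higher in each genotype (median -0.60 in KO and -0.76 in WT cells). Cbs, which condenses serine with homocysteine, averaged 0.65 FPKM at day 9 and 13.4 FPKM at day 0 in KO cells (log2 fold change -3.12, adjusted p = 7.13e-11), and 0.763 FPKM at day 9 and 13.2 FPKM at day 0 in WT cells (adjusted p = 1.30e-10). Cth, the next enzyme of that route, had -1.94 in KO (adjusted p = 1.93e-07) and -2.03 in WT cells (adjusted p = 1.09e-07). Of 14 tested genes of other folate enzymes and transporters, 7 were lower and 1 higher in KO cells and 6 lower and 1 higher in WT cells. Mthfd2l, a paralog of Mthfd2 named after its values were seen, was the higher one, at 1.10 FPKM at day 9 and 0.0334 FPKM at day 0 in KO cells (log2 fold change 1.02, adjusted p = 8.75e-07), and 1.06 FPKM at day 9 and 0.103 FPKM at day 0 in WT cells (0.90, adjusted p = 4.77e-06).

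Transporters of these amino acids were split, and 45.1% of all genes in KO and 46% in WT cells passed in either direction. Of 12 tested, 4 were higher and 5 lower at day 9 in KO cells, and 4 higher and 4 lower in WT cells. Slc1a5, a neutral amino acid exchanger, had -2.46 in KO (adjusted p = 1.34e-09) and -2.35 in WT cells (adjusted p = 2.96e-09). Slc38a4, a sodium-coupled carrier, had 1.27 in KO (adjusted p = 0.00452) and 1.41 in WT cells (adjusted p = 0.00194). Of 16 amino acid response genes, 3 were higher and 4 lower at day 9 in KO cells, and 5 higher and 2 lower in WT cells. Asns, asparagine synthetase, averaged 75.7 FPKM at day 9 and 278 FPKM at day 0 in KO cells (log2 fold change -1.92, adjusted p = 1.42e-06), and 82.3 FPKM at day 9 and 271 FPKM at day 0 in WT cells (-1.71, adjusted p = 6.56e-06). Cebpb, a transcription factor, had 1.28 in KO (adjusted p = 1.31e-04) and 1.87 in WT cells (adjusted p = 1.38e-06). Of 16 proliferation genes, 10 were lower and none higher in KO cells, and 11 lower and 1 higher in WT cells (median -1.04 in KO and -1.03 in WT cells), against the 22.7% and 23.8% of all genes that were lower. Mcm5, of the replicative helicase, had -1.97 in KO (adjusted p = 6.36e-07) and -2.40 in WT cells (adjusted p = 4.16e-08). The part of proliferation in the fall of the enzyme genes was not tested.

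KO and WT cells did not differ detectably in any of the 10 genes. With limma, 0 of 10 passed at day 0 (0.0132% of all genes passed), day 3 (0.0132%), day 6 (0.726%) and day 9 (0.963%), and 0 in the mean of the 4 days (0.198%). None had an unadjusted limma p under 0.05 in these comparisons. Of all genes 1.11%, 0.798%, 10%, 5.2% and 3.81% did, in the same order. The change of the KO minus WT difference from day 0 passed for 0 of 10 at day 3 (0.0132%), day 6 (0.112%) and day 9 (0.264%). All 40 differences had 95% intervals that included 0, and all 40 pairs of library ranges overlapped, while ranges did not overlap for 7.51%, 3.79%, 7.92% and 10.5% of all genes at days 0, 3, 6 and 9. Each interval takes the gene's spread from all 8 groups, so it can be too wide at days where the libraries lay close. It can be too narrow where they lay far apart, as for Tdh in WT cells at day 6 (8.79 ± 7.85 FPKM, SD, n = 3). Neither intervals nor ranges use the possible pairing of day 3 libraries described below. The lowest bound of any interval was -1.59 (Tdh at day 9) and the highest 0.85 (Gcat at day 6, log2), with widths from 0.68 to 1.65. For each gene and day, differences within its own interval are not excluded.

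The largest differences were those of Tdh, at levels near its minimum. Tdh averaged 4.68 ± 1.55 FPKM in KO and 8.79 ± 7.85 FPKM in WT cells at day 6 (SD, n = 3; log2 fold change -0.51, 95% interval -1.34 to 0.31, adjusted p = 0.639), and without WT day 6 replicate 3 the value turned to 0.11. At day 9 it averaged 7.17 ± 4.15 FPKM in KO and 12.0 ± 2.66 FPKM in WT cells (-0.77, interval -1.59 to 0.05, adjusted p = 1). Phgdh at day 6 averaged 70.0 ± 31.2 FPKM in KO and 93.5 ± 24.8 FPKM in WT cells (-0.46, interval -1.06 to 0.14, adjusted p = 0.590), with 0.27 under TPM. TPM moved the median of all genes by 0.49 at day 6, and the calls over all genes that were lower there made up 34.8%, against 68.2% as deposited. At day 9 they made up 30.4% under TPM and 51.4% as deposited. At day 9 all 10 differences were negative, from -0.77 to -0.01, with a median of -0.20 against 0.01 for all genes. At days 0, 3 and 6 the signs were mixed. None of the 7 pathway lists above had a gene that passed between KO and WT cells at any day. Erythroid markers (7 genes) summed to 164 to 2501 FPKM in KO and 23.4 to 86.0 FPKM in WT libraries at day 6. At day 9 they summed to 111 to 437 FPKM in KO and 246 to 532 FPKM in WT libraries.

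**Figure D4:**
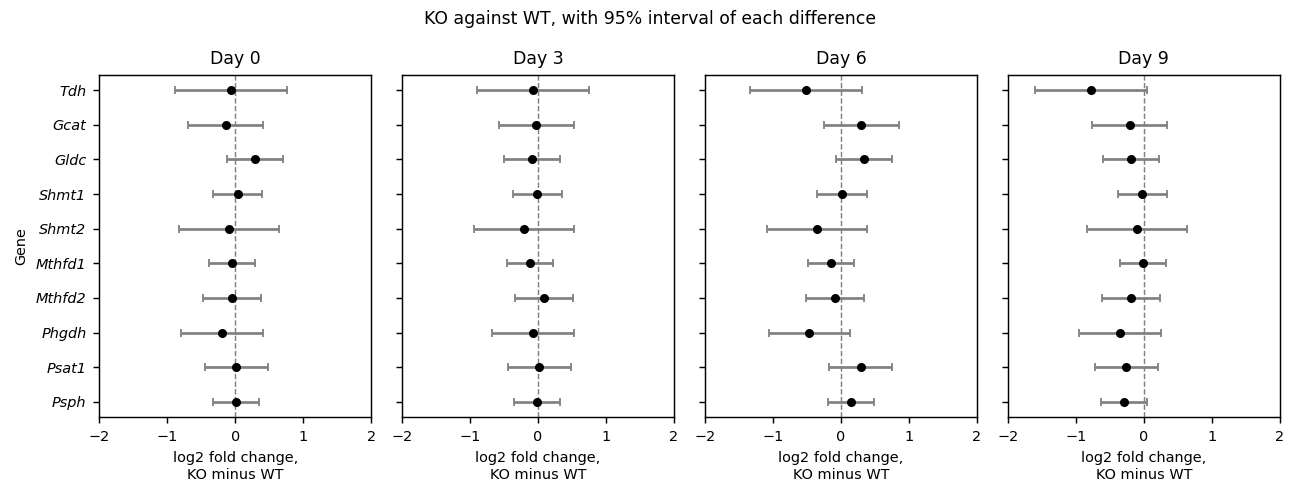
Log2 fold change (KO minus WT) of each gene at each day (points) with limma's 95% interval (bars). Every interval crosses 0, and the widest reach is that of Tdh at day 9, down to -1.59.

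Libraries of a group differed from each other in a way that several members shared. Each library's deviation from its group mean (log2 scale) was correlated between members, and with the share of reads in the rRNA-type genes, over 24 libraries (55 relations, 100000 permutations within groups, two-sided, Benjamini-Hochberg over the 55). Same-numbered KO and WT libraries of day 3 deviated together across genes, and these permutations treat them as separate, so the p-values may be too small. Gcat and Phgdh deviated together (Pearson's r = 0.942, Spearman's rho = 0.927, permutation p = 3.00e-05, adjusted p = 0.00165 for each), as did Shmt2 and Phgdh (r = 0.921, rho = 0.897, permutation p = 8.00e-05 and 1.20e-04, adjusted p = 0.00220 and 0.00330). Without the 2 libraries farthest from the median these r were 0.933 and 0.896. How often other pairs of genes deviate together as closely was not tested. Shmt2 also followed the rRNA-type share (r = 0.792, rho = 0.740, permutation p = 0.00328 and 0.00358, adjusted p = 0.0224 and 0.0219), with r = 0.737 without the 2 farthest. So did Tdh (r = 0.734, rho = 0.788, permutation p = 0.00366 and 0.00106, adjusted p = 0.0224 and 0.00972) and Shmt1 (r = 0.690, rho = 0.677, permutation p = 0.00238 and 0.00265, adjusted p = 0.0187 and 0.0182). Without the 2 farthest their r were 0.614 and 0.675. Gcat (r = 0.739, rho = 0.643, permutation p = 0.00548 and 0.0116, adjusted p = 0.0301 and 0.0626) and Phgdh (r = 0.724, rho = 0.608, permutation p = 0.00681 and 0.0199, adjusted p = 0.0328 and 0.0643) passed by Pearson's r and not by Spearman's rho, with r = 0.668 and 0.648 without the 2 farthest. Of all genes tested 7.87% had an r with that share at least as high as that of Shmt2, and the median gene had 0.07. For Gcat, Tdh, Phgdh and Shmt1 that percentage was 12.2%, 12.5%, 13.2% and 15.9%. Psat1 (r = 0.08, rho = -0.03, permutation p = 0.785 and 0.895, adjusted p = 0.821 and 0.895) did not show it. Gldc (r = 0.41), Mthfd1 (0.24) and Mthfd2 (0.21) did not pass either. Psph had the opposite sign (r = -0.43, rho = -0.54, permutation p = 0.0590 and 0.0184, adjusted p = 0.167 and 0.0643) and did not pass. The share's part in the spread of these genes was not tested.

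**Figure D5:**
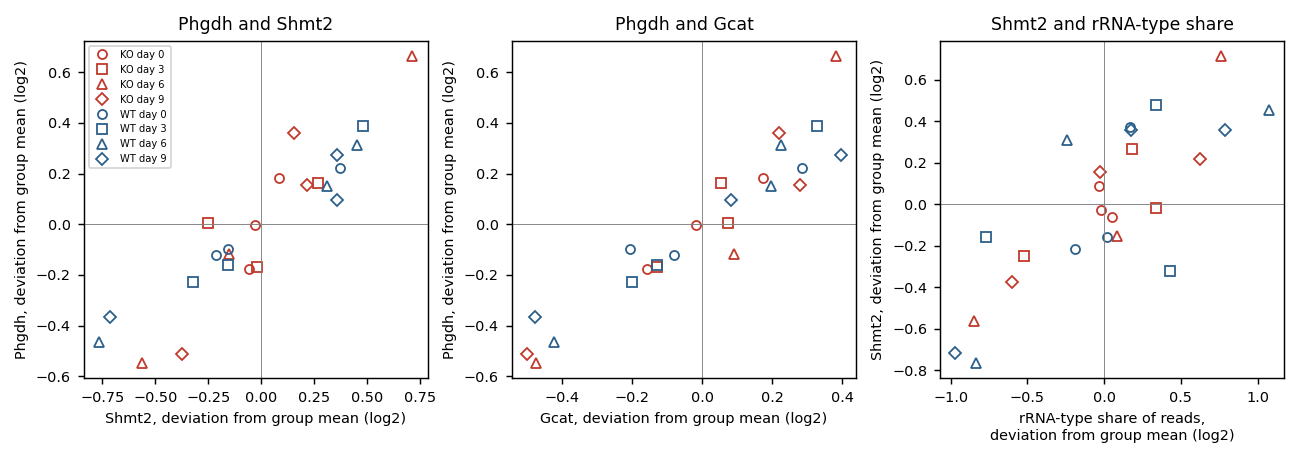
Deviation of each library from its group mean (log2): Phgdh against Shmt2, Phgdh against Gcat, and Shmt2 against the rRNA-type share of reads, with KO in red, WT in blue and 1 symbol per day. Points rise together in all panels, with r = 0.921, 0.942 and 0.792.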

How the data were processed

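Values are FPKM in the table the authors deposited, and the sources used here do not say how the authors derived FPKM. The library scaling recovered from them matched size factors of the recovered reads to within 0.0477%. These size factors are median ratios to the geometric mean over libraries, taken from 15330 genes. The submitters' processing notes name HISAT2 2.2.1, Trimmomatic 0.39, R 4.1.0 with DESeq2 1.30.1, FastQC 0.11.9 and featureCounts 2.0.1, and the build mm10. Strand is not stated, so overlapping genes and near-identical copies are less certain. A KO day 0 column that the labels tie to its group, but to no single sample, was kept as an unnumbered library. Reads were recovered from GENCODE vM21 exon lengths, and per library 95.5% to 96.9% of values up to 50 reads were whole to within 0.05 reads.

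The 15159 genes that reached 1 FPKM in 3 or more libraries were fitted as log2(FPKM + 1) with limma 3.58.1 under R 4.3.3. The fit had 8 groups, all 24 libraries and a trended prior, two-sided, with Benjamini-Hochberg adjustment and a threshold of 0.05. The scale understates changes of low genes. Scripts were tested on simulated data. Other steps used Python 3.11.15 with scipy 1.17.1, pandas 2.3.3, matplotlib 3.10.9 and numpy 2.4.6.

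Members and lists were chosen with earlier results of these data known. Every member is named, of each list up to 4 genes that passed with the largest change, and for Tdh, Phgdh and Mthfd2 the 5 most alike genes with a mean of at least 5 FPKM in some group.

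Same-numbered KO and WT libraries deviated together at day 3 (r = 0.655, 0.614 and 0.599 across genes), and not at every number of the other days. The labels name no pairs. The rRNA-type share of day 3 replicates 1, 2 and 3 was 15.4%, 25.0% and 27.9% in KO and 15.3%, 33.0% and 35.2% in WT cells. Whether the day 3 libraries are paired or share this order for another reason was not tested. A replicate block at day 3 changed no KO against WT call of a member.

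Alternatives were another pseudocount (0.1), no filter, a stricter filter (5 FPKM), TPM, equal sums without rRNA-type genes, compared groups alone, a replicate block, each library left out, and day 6 replicates 1 and 2 alone. The rRNA-type share as covariate and limma-voom on recovered reads were added after seeing the data.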

Additional observations from a re-analysis of the deposited data

How the results depend on the processing

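No member passed between KO and WT cells under any alternative run. Of 59 member calls between days, 59 held under a pseudocount of 0.1, 59 under the stricter filter, 54 with no filter, 54 with equal sums, 47 with the compared groups alone, 58 with voom and 54 with the rRNA-type covariate. With day 6 replicates 1 and 2 alone, 30 of the 34 calls concerned held. Under TPM 28 held, 27 were lost and 4 turned. The counts of 5, 8, 8, 6 and 2 in KO cells (days 3, 6 and 9 against day 0, day 6 against day 3, day 9 against day 6) became 2, 3, 5, 1 and 0 under TPM. Those of 4, 8, 8 and 2 in WT cells (day 3 and day 9 against day 0, day 6 against day 3, day 9 against day 6) became 2, 5, 4 and 6. Equal sums gave 3 for KO day 3 and 4 for WT day 9 against day 6. Of all genes 3906 and 2573 passed there, against 4266 and 2013 in the main fit. Compared groups alone gave 3 and 0 in KO cells and 4 and 0 in WT cells for the last 2 steps. Calls over all genes fell there too, from 4954 to 2654 and from 1290 to 142 in KO cells. In WT cells they fell from 5858 to 3761 and from 2013 to 302. The replicate block held 51 calls and gave 3 for KO day 3, 1 for KO day 9 against day 6 and 1 for WT day 9 against day 6. With it 2711, 1044 and 1528 of all genes passed, against 4266, 1290 and 2013 in the main fit. The cause was not tested. The block drops the unnumbered library, and between days the numbers are not known to pair. Leaving out 1 library gave 1 to 2 for KO and 1 to 5 for WT at day 9 against day 6.

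Values that turned were Tdh KO minus WT at day 6 under TPM (0.16), without WT day 6 replicate 3 (0.11, in a range of -1.01 to 0.11 over single libraries left out), with day 6 replicates 1 and 2 alone (0.16) and with the covariate (0.061), and Phgdh KO minus WT at day 6 under TPM (0.27). Against day 0, Shmt2 turned with the covariate at KO day 6 (0.031), KO day 9 (0.15) and WT day 9 (0.10), and under TPM at WT day 9 (0.11). Under TPM at day 9 so did Mthfd2 in KO (0.42) and WT cells (0.66), Psat1 in KO (0.028) and WT cells (0.41) and Psph in WT cells (0.36), and Gldc in WT cells at day 9 against day 6 (0.47). The cause was not tested beyond the shift of all genes given above. The quasi-likelihood and TMM fits planned on reads were not run; voom with the deposited scaling stood in. Depth limits Tdh, Gcat and Psph most, at 131, 142 and 142 reads in their lowest libraries.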
